A study of Homo sapiens with 22 samples.

Results

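A set of 8 genes of the human pluripotency programme, POU5F1, SOX2, LIN28A, LIN28B, SALL4, LEFTY1, LEFTY2 and TRIM71, were given by the depositors as the gene nearest to a region enriched for H3R2me2a, the asymmetric dimethylation of arginine 2 on histone H3. Together they accounted for 15 of 8819 regions. The regions were found by gene name in a promoter list and an enhancer list, and each was then joined by its coordinates to 1 of 3 clusters. The genes were selected on the presence of an H3R2me2a region that names them, so that presence is a description, and what follows concerns the position, cluster and tags of the regions. The series applied chromatin immunoprecipitation and sequencing (ChIP-seq) to NT2/D1, a human embryonal carcinoma line, in 22 samples that combine antibodies to H3R2me2a, H3K27ac, H3K4me1 and H3K4me3, or control IgG, with CRISPR/Cas9 control cells or cells in which PRMT6, the methyltransferase that places H3R2me2a, was deleted. The groups used here were CRISPR/Cas9 control cells kept for 3 days in 1 µM ATRA (all-trans retinoic acid) and CRISPR/Cas9 control cells without ATRA, each with 1 library made with a rat monoclonal antibody to H3R2me2a. The sources used here do not say whether the control cells were a clone or a pool. The libraries of PRMT6-deleted cells were not analysed here, so dependence of these regions on PRMT6 was not tested.

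POU5F1 (OCT4) and SOX2 are transcription factors that bind together and hold cells in the pluripotent state, and SALL4 is a zinc finger factor of the same network. LIN28A and LIN28B are RNA-binding proteins that block the maturation of let-7 microRNAs, and TRIM71 (LIN41) is a let-7 target that keeps stem cells from differentiating. LEFTY1 and LEFTY2 are secreted antagonists of NODAL, a ligand that supports the pluripotent state of human cells. Embryonal carcinoma cells leave this state when given retinoic acid. The lists hold a histone mark and no RNA values, so the pluripotent label of the line was not checked against expression.

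Clusters I and II were deposited under the library without ATRA, and cluster III, the promoter list and the enhancer list under the library with ATRA. Region coordinates are on hg19 throughout. Clusters I and III carry "MACS tags", the tags counted by the peak caller, and the promoter and enhancer lists carry "tagcount". Both are whole-number tag counts that were not rescaled here, and total depth is unknown. The sources used here do not say from which library tagcount was taken. Over the 202 regions of cluster I, which were deposited under the library without ATRA, tagcount was higher than MACS tags by a median of 3 and at most 8 tags. In cluster III, MACS tags exceeded tagcount by a median of 26 tags over 6519 regions. With 1 library per condition no test was made, and the 95% intervals below are exact Poisson or Clopper-Pearson intervals that cover counting error only.

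Start windows of 300 bases (250 before and 50 after a RefSeq gene start, build GRCh38.p14) were at hand for 3 of the 8 genes, SOX2, TRIM71 and LIN28B. Both windows of LIN28B are shown because its region was named for 1 of them, and that of SOX2 is shown as the start of a core factor. Deposited distances put the LIN28B region 873 bp and the SOX2 region 41642 bp from the named start. LIN28B has starts 16142 bp apart on that build, and the start named for its region was the downstream one, which lies in a sequence poor in G and C. Motifs found by exact match on either strand are in capitals.
LIN28B, downstream start, chr6:104956857-104957156 (+): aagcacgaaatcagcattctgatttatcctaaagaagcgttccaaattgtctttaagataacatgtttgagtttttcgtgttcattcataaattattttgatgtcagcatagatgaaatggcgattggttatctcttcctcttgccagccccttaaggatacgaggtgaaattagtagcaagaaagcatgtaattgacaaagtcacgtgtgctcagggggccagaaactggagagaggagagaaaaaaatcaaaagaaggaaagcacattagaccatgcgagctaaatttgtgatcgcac
LIN28B, upstream start, chr6:104940715-104941014 (+): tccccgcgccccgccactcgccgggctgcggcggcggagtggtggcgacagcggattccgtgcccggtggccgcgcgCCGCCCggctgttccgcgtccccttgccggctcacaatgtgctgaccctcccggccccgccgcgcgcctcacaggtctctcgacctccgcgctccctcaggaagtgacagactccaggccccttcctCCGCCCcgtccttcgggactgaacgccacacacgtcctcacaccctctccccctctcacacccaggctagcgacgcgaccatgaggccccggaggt
SOX2, chr3:181711675-181711974 (+): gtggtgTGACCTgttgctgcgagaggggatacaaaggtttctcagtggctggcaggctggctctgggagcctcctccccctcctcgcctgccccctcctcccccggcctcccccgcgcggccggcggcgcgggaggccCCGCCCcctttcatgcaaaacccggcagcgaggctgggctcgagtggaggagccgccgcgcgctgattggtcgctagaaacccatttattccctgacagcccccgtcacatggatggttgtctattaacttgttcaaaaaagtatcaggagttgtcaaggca

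The downstream LIN28B window had 39% G and C and 8 CpG dinucleotides, against 73% and 37 in the upstream window. SOX2 had 63.3% and 20, and TRIM71 had 66% and 27. Medians over all 35116 windows of the RefSeq table were 58.7% and 14. The capitals mark the GC box GGGCGG, which 45.0% of all windows hold, and the retinoic acid receptor core site AGGTCA, which 13.8% hold. The upstream LIN28B window held the GC box at 2 places, both on the reverse strand as CCGCCC. SOX2 held 1 GC box and 1 receptor core site, also on the reverse strand. The downstream LIN28B window and the TRIM71 window held no match to either. The octamer ATGCAAAT, held by 1.77% of windows, and the SOX core AACAAT, held by 10.1%, matched none of these 4 windows.

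The regions of the pluripotency genes lay in all 3 clusters. Cluster II held 7 of the 15 regions (46.7%, 95% interval 21.3 to 73.4), against 23.8% of all 8819 regions. Cluster III held 6 (40%, 16.3 to 67.7), against 73.9% of all regions. Cluster I held 2 (13.3%, 1.66 to 40.5), against 2.29% of all regions. LIN28A alone supplied 6 of the 15 regions, and regions of 1 gene share a locus. Without LIN28A, clusters I, II and III held 1, 3 and 5 of 9 regions. By gene, 2 of the 8 had a region in cluster I (POU5F1 and LIN28A), 4 in cluster II (LIN28A, SALL4, LEFTY1 and TRIM71) and 5 in cluster III (SOX2, LIN28A, LIN28B, SALL4 and LEFTY2).

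**Figure D1:**
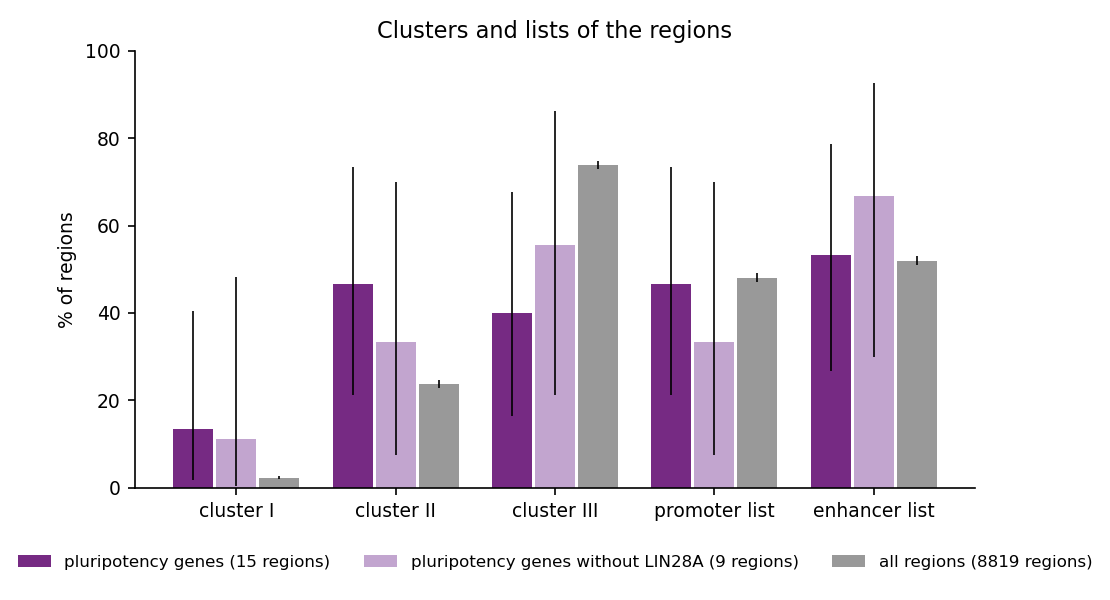
Percentage of regions (vertical axis) in each cluster and in the promoter and enhancer lists, for the 15 regions of the pluripotency genes, the 9 that remain without LIN28A, and all 8819 regions. Bars are shares and lines are exact 95% intervals. The share of cluster II is 46.7% with LIN28A and 33.3% without it, against 23.8% of all regions.

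The promoter list held 7 of the 15 regions (46.7%, 21.3 to 73.4), close to the 48.0% of all regions. By gene, 3 of the 8 had a promoter-list region (37.5%, 8.52 to 75.5). LIN28A had 4 of these regions, SALL4 had 2 and LIN28B had 1. Enhancer-list regions belonged to 7 of the 8 genes (87.5%, 47.3 to 99.7), and LIN28B was the exception. Of all 6697 named genes, 57.7% had a promoter-list region and 47.7% an enhancer-list region, and both shares lie within the wide intervals of the 8 genes. Within 1000 bp of the named start lay 5 of the 15 regions (33.3%, 11.8 to 61.6), against 50.5% of all regions, and introns held 5 of 15, against 23.0% of all regions.

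**Figure D2:**
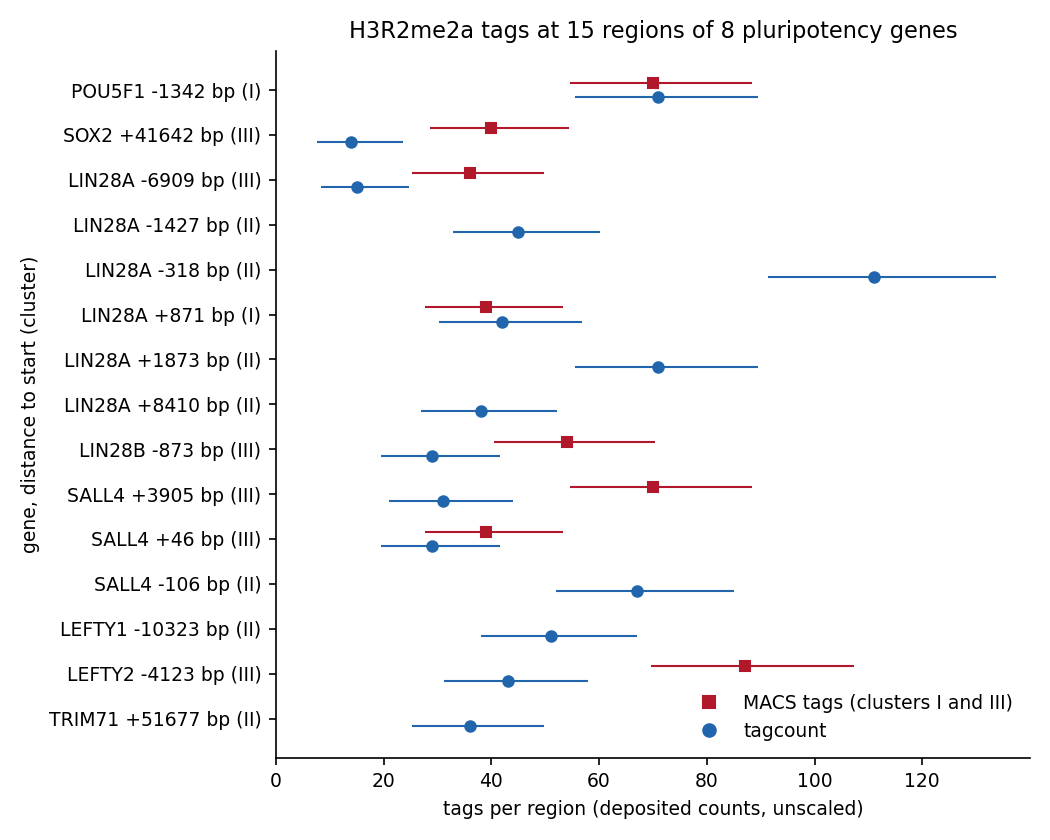
Tags per region (horizontal axis, counts as deposited) at the 15 regions, named by gene, deposited distance to the start and cluster. Squares are MACS tags, circles are tagcount, and lines are exact Poisson 95% intervals. Tagcount runs between 14 at SOX2 and 111 at LIN28A, and MACS tags lie above tagcount in all 6 cluster III regions. This is not particular to these genes. Over all cluster III regions, MACS tags minus tagcount has a median of 26 and a minimum of -30.

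These genes had 2 cluster I regions, at LIN28A and at POU5F1, a core transcription factor, and the POU5F1 region was the stronger. It covered 563 bp on chromosome 6, 31139501 to 31140063, 1342 bp upstream of the start of transcript ENST00000259915. It had 70 MACS tags (54.6 to 88.4) and a tagcount of 71 (55.5 to 89.6). Of all cluster I regions, 93.6% had a tagcount no higher than this. The depositors placed it in their start window, set at 1250 bp in the file header, and in the enhancer list. POU5F1 has related copies elsewhere in the genome, and the sources used here do not say how reads with several matches were treated.

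SOX2 had a single, weak cluster III region, 41642 bp downstream of its start on chromosome 3, 181471119 to 181471604. It had 40 MACS tags (28.6 to 54.5) and a tagcount of 14 (7.65 to 23.5). Only 29.2% of cluster III regions had as few MACS tags. The depositors classed it as intronic. SOX2 itself has 1 exon and spans 2512 bp in GENCODE 44, so the intron belongs to another transcript, which the lists do not name. POU5F1 and SOX2, whose proteins act together, were thus listed in different clusters, POU5F1 close to its start and SOX2 far from it.

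LIN28A had the most regions of the 8 genes. Its 6 regions lay within 15913 bp of chromosome 1 (26729926 to 26745838) and covered 19.2% of that stretch. Of 6697 named genes, 55 (0.821%) had 6 or more regions, and 81.9% had a single one. Only 12 names had regions in all 3 clusters, and some of them, such as Y_RNA and snoU13, stand for many gene copies. LIN28A was also 1 of 4 names with 4 or more cluster II regions.

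Read along the gene, the first LIN28A region was intergenic, 6909 bp upstream of the start, in cluster III and the enhancer list, with 36 MACS tags (25.2 to 49.8) and a tagcount of 15 (8.40 to 24.7). The next was in cluster II, 1427 bp upstream (26735660 to 26736083), with a tagcount of 45 (32.8 to 60.2). The strongest of all 15 regions followed at the start itself, 318 bp upstream (26736392 to 26737199, 808 bp wide), with a tagcount of 111 (91.3 to 134). In cluster II, 74.8% of regions had a tagcount no higher than this.

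Past the start, a cluster I region 871 bp downstream (26738035 to 26738425) had 39 MACS tags (27.7 to 53.3) and a tagcount of 42 (30.3 to 56.8). A cluster II region in an intron, 1873 bp downstream (26738794 to 26739396), had a tagcount of 71 (55.5 to 89.6) and was in the promoter list. The last was intronic too, 8410 bp downstream (26745452 to 26745838), in cluster II and the enhancer list, with a tagcount of 38 (26.9 to 52.2). Tagcount was thus highest at the start and lower on both sides, and the interval of the start region overlapped with none of the other 5. These counts are not corrected for width, and the start region was the widest at LIN28A (808 bp). Per 100 bp its tagcount was 13.7, against 9.82 to 11.8 at the other cluster I and II regions. The cluster III region had 3.41 per 100 bp. Of all cluster II regions, 52.9% had no more tags per 100 bp than the LIN28A start region. Intervals were compared for counts only, and not per 100 bp.

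The cluster I region of LIN28A stood between cluster II regions, with gaps of 835 bp on the upstream and 368 bp on the downstream side. Every cluster II region has a second, overlapping interval in the deposited list. Measured to those other intervals, the gaps shrank to 68 and 165 bp, and the cluster I region still overlapped neither. Such proximity was uncommon, since 6 of 202 cluster I regions (2.97%, 1.10 to 6.35) lay within 1000 bp of a cluster II region. The LIN28A region is counted among these 6.

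**Figure D3:**
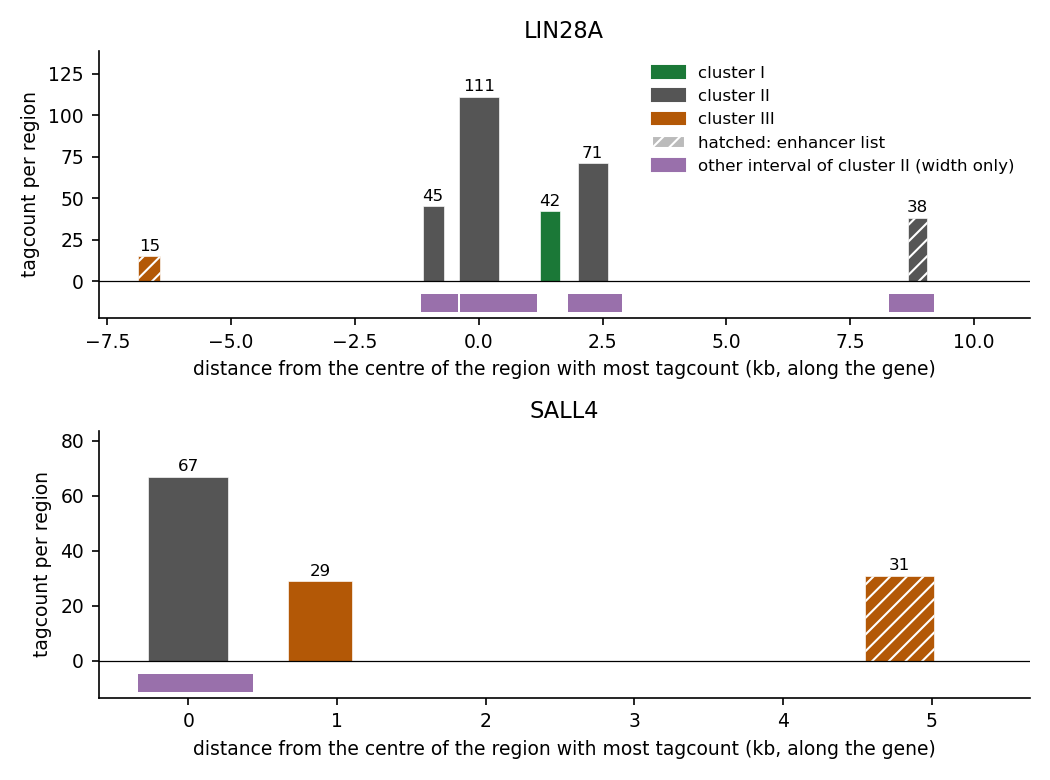
Tagcount (vertical axis) of each region at LIN28A (top) and SALL4 (bottom) by distance in kb from the centre of the gene's region with most tagcount, in the direction of transcription. Bar width is region width, colour is the cluster, hatching marks the enhancer list, and the purple strip shows only the extent of the other cluster II interval. The cluster I region of LIN28A (42) stands in a gap of the purple strip.

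LIN28B, the paralogue of LIN28A, had a single region. It lay 873 bp upstream of the downstream start shown above, on chromosome 6, 105403873 to 105404477, in cluster III and the promoter list. It had 54 MACS tags (40.6 to 70.5) and a tagcount of 29 (19.4 to 41.6). TRIM71 also had 1 region, in cluster II and the enhancer list, 51677 bp past the start on chromosome 3 (32910950 to 32911341). The depositors classed it as intronic, and the transcript named spans 79828 bp in GENCODE 44. Its tagcount of 36 (25.2 to 49.8) was near the bottom of cluster II, where the lowest value is 35 and 3.86% of regions had 36 or fewer.

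SALL4 had 3 regions within 5286 bp on chromosome 20 (50414057 to 50419342), divided between clusters II and III. The cluster II region was 106 bp upstream of the start of ENST00000217086 (50418804 to 50419342), with a tagcount of 67 (51.9 to 85.1). A cluster III region 398 bp away in the direction of transcription was 46 bp past the start of a shorter transcript, ENST00000483130 (50417970 to 50418405). It had 39 MACS tags (27.7 to 53.3) and a tagcount of 29 (19.4 to 41.6). The third, in an exon 3905 bp past that start (50414057 to 50414523), was in cluster III and the enhancer list, with 70 MACS tags (54.6 to 88.4) and a tagcount of 31 (21.1 to 44.0). By tagcount, the cluster II region of SALL4 stood above both cluster III regions with intervals that did not overlap. The clusters at large are ordered the same way, so this is not particular to SALL4. Median tagcount was 69 in cluster II, where the lowest value is 35, and 24 in cluster III.

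The NODAL antagonists LEFTY1 and LEFTY2 are neighbours on chromosome 1, and each had 1 enhancer-list region upstream of its start. The LEFTY2 region was the widest of the 15 (902 bp, 226132965 to 226133866), 4123 bp upstream, in cluster III, with 87 MACS tags (69.7 to 107) and a tagcount of 43 (31.1 to 57.9). The LEFTY1 region was in cluster II, 10323 bp upstream (226086920 to 226087429), classed as intronic, with a tagcount of 51 (38.0 to 67.1). Being upstream of the named start, it lies outside the named transcript. The intron thus belongs to another transcript, which the lists do not name. The regions were 45535 bp apart. LEFTY1 and LEFTY2 are close paralogues, and reads that match both could be split between them.

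Tags at the 6 cluster III regions were set against tagcount at the same regions. MACS tags were at least 2 times tagcount at 4 of the 6 regions, and 53.5% of all 6519 cluster III regions passed the same threshold, so the share of the pluripotency genes is near the background. The ratio, with 1 tag added to both counts, was 2.73 at SOX2, 2.31 at LIN28A, 2.22 at the exonic SALL4 region and 2 at LEFTY2. LIN28B (1.83) and the SALL4 region 46 bp past the start of ENST00000483130 (1.33) were below the threshold. LEFTY2 (87 MACS tags against a tagcount of 43) was just inside it and LIN28B (54 against 29) just outside. The median over the 6 regions was 2.11, against 2.02 over all cluster III regions, whose middle 50% ran from 1.57 to 3.04. At the SALL4 region past the start of ENST00000483130 the intervals of MACS tags and tagcount overlapped, as they narrowly did at LIN28B. At the other 4 regions they did not overlap, though LIN28A only just cleared (25.2 against 24.7). Such overlap was not counted over all cluster III regions, where MACS tags exceeded tagcount by a median of 26. It is therefore not given as a trait of these genes. Since total depth is unknown and the library of tagcount is not stated, these ratios rank regions and are not given as a change with ATRA.

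**Figure D4:**
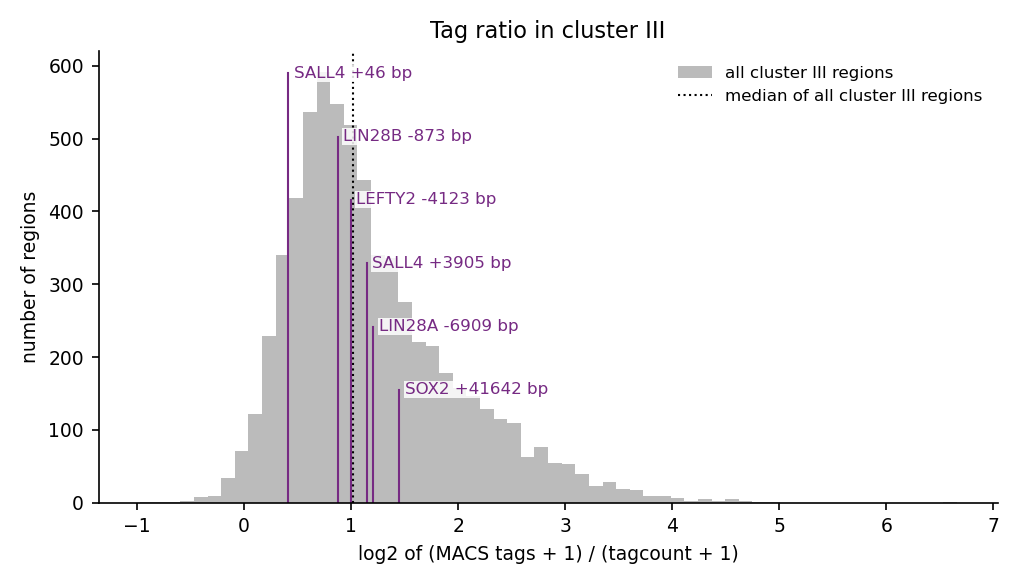
Number of cluster III regions (vertical axis) by the log2 of (MACS tags + 1) / (tagcount + 1) (horizontal axis), over all 6519 regions in grey, with the 6 regions of pluripotency genes as purple lines whose height has no meaning. The dotted line is the median of all regions. The purple lines stand on both sides of it, between ratios of 1.33 and 2.73.

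The 7 cluster II regions carried a further readout, the width of the other interval. It named the same gene in all 7. It was wider than the first interval in 6 of 7, against 84.9% of all 2098 cluster II regions. The median ratio of the widths was 1.77, against 1.29 over the cluster. LIN28A supplied 4 of the 7 regions, which share a locus, and the median is the value of 1 of them. The LIN28A regions had other intervals of 751, 1558, 1088 and 924 bp beside first intervals of 424, 808, 603 and 387 bp, read along the gene. The last of these had a width ratio of 2.39, and 95.2% of cluster II regions had a ratio no higher. The SALL4 pair was 773 and 539 bp (ratio 1.43) and the TRIM71 pair 566 and 392 bp (1.44). LEFTY1 was the exception with 448 and 510 bp, a ratio of 0.878. The sources used here do not say from which library the other interval came.

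**Figure D5:**
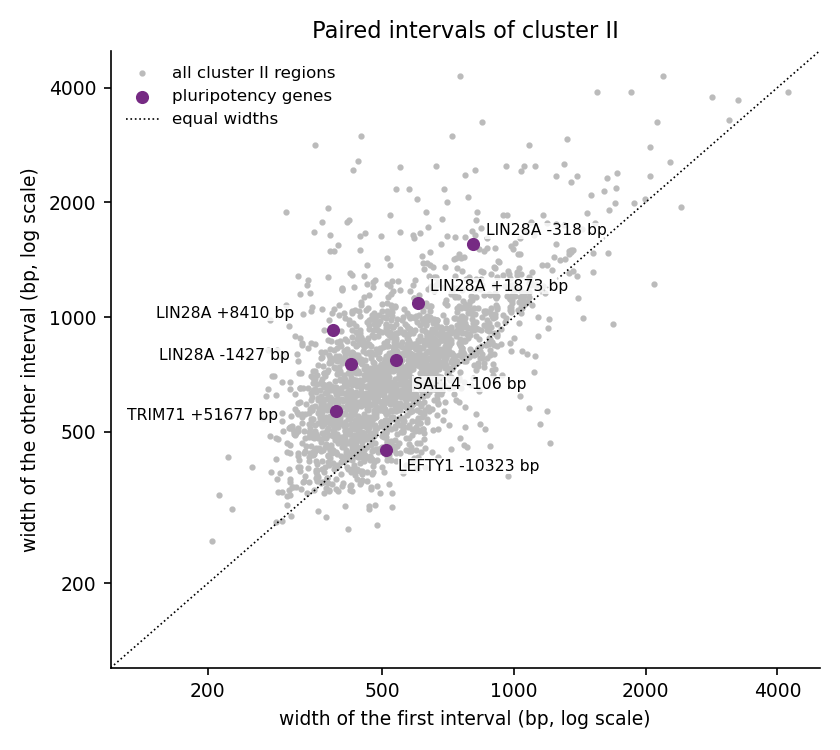
Width of the other interval (vertical axis, bp, log scale) against width of the first interval (horizontal axis, bp, log scale) for all 2098 cluster II regions in grey and the 7 regions of pluripotency genes in purple, with the line of equal widths. The 4 LIN28A regions, SALL4 and TRIM71 lie above the line and LEFTY1 lies below it.

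Of a list of 40 pluripotency genes, 11 were named by a region (27.5%, 14.6 to 43.9), against 22.4% of 20056 protein-coding genes in RefSeq. The 8 genes, selected for having a region, are among the 11, so this share is a description. The 3 others were ESRRB, an orphan nuclear receptor gene, SALL1, a relative of SALL4, and ZIC2, a zinc finger factor gene. All 8 of their regions were in cluster III. ZIC2 had 4 regions with 46 to 50 MACS tags, 3 of them in the promoter list. SALL1 had 3 promoter-list regions with 33 to 55 MACS tags. ESRRB had 1 intronic region 70640 bp past a start, with 43 MACS tags and a tagcount of 15. The median ratio of MACS tags to tagcount over these 8 regions was 1.60. NANOG, PRDM14, ZFP42, NODAL, TDGF1, DNMT3B and KLF4 were among the 29 genes of the list that no region names. A gene can be passed over here when another transcript lies nearer to a region.

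Of 26 genes of the LIN28 and let-7 pathway, 9 were named (34.6%, 17.2 to 55.7), 3 of them LIN28A, LIN28B and TRIM71. The background of 22.4% covers protein-coding genes only. Of the 14 protein-coding genes in the list, 9 were named (64.3%, 35.1 to 87.2), an interval above the background. The 3 genes selected for having a region are among the 9, so this share is a description and its interval is no test. The other 6 had promoter-list regions. The terminal uridylyltransferase genes ZCCHC11 (TUT4) and ZCCHC6 (TUT7), whose enzymes act on let-7 precursors with LIN28, had regions 127 and 41 bp upstream of their starts. The ZCCHC11 region was in cluster II with a tagcount of 50, and the ZCCHC6 region was in cluster III with 40 MACS tags and a tagcount of 25. DIS3L2, an exonuclease gene for uridylated precursors, had a cluster III region at its start with 48 MACS tags. The let-7 targets HMGA1, IGF2BP1 and IGF2BP3 had 1, 3 and 2 cluster III regions, the strongest at HMGA1 with 96 MACS tags (77.8 to 117) and a tagcount of 39. None of the 12 let-7 family genes in the list, MIR98 included, was named.

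Of 22 genes of NODAL and activin signalling, 6 were named (27.3%, 10.7 to 50.2), the 4 besides LEFTY1 and LEFTY2 being CFC1, a NODAL co-receptor gene, SMAD3, a signal transducer gene, and the SMAD corepressor genes SKI and SKIL. Each had 1 cluster III region, with 32 to 53 MACS tags. CFC1 (53 MACS tags, tagcount 14) and SKIL (38 and 11) had ratios of 3.60 and 3.25, and SMAD3 (32 and 28) had 1.14. Of 14 surface and marker genes of embryonal carcinoma cells, 5 were named (35.7%, 12.8 to 64.9). Counted over all their genes, each of these 4 lists has an interval that holds the background of 22.4% of protein-coding genes. Counted over protein-coding genes alone, the LIN28 and let-7 list does not (9 of 14, 64.3%, 35.1 to 87.2), and the others do. The pluripotency, LIN28 and NODAL lists hold genes selected for having a region. All 4 lists were chosen with earlier results of these data known. The shares are therefore descriptions, and their intervals are no test against the background. CD9, a tetraspanin gene, and PODXL, the podocalyxin gene, had 6 regions each. The adhesion gene CDH1 had 1 cluster I region (34 MACS tags), and CLDN6 and EPCAM had 1 cluster III region each at their starts (37 and 34 MACS tags).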

How the data were processed

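The authors deposited 5 lists of H3R2me2a regions from 2 libraries, 1 per condition. The submitters' processing notes name MACS 1.4, Bowtie2, bcl2fastq, deepTools and build hg19, and assign no step to any tool. The deposited tag counts per region, under the file headers "MACS tags" and "tagcount", are whole numbers, and no count was rescaled here. The sources used here do not give peak calling settings, the control used, the cluster criteria or depth.

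The lists were joined by region coordinates with pandas 2.3.3 on Python 3.11.15, and intervals were computed with scipy 1.17.1. Percentages of a cluster beside a value count regions at or below it. A ratio adds 1 tag to both counts, and the 2-fold threshold uses raw counts. Start sequences came from RefSeq on GRCh38.p14 and transcript spans from GENCODE 44. The share of protein-coding genes named by a region was counted over RefSeq symbols and unambiguous synonyms. No coordinate of that build was compared with a region. Deposited distances are the authors' own. Starts implied by region midpoints differed by a median of 100 bp among regions of the same transcript, so distances are read to about that precision. Named genes were the 8 genes, other list genes with regions, genes within 50000 bp, and genes with the most similar region counts to a gene with 3 or more regions. The genes and lists were chosen with earlier results of these data known. A neighbouring gene is not reported here. Joining and summaries were tested on simulated data.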

Additional observations from a re-analysis of the deposited data

How the results depend on the processing

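The regions divided among the clusters in a way that depended on which were counted. Cluster II held 4 of the regions in place of 7 when they had to lie within 5000 bp of the start. Leaving out LIN28A, an alternative chosen after seeing the data, gave 1 region in cluster I and 3 in cluster II. Cluster III held 2 in place of 6 among regions whose tagcount reached the median of their list (40 for promoters, 24 for enhancers). Of the 6 cluster III regions, 0 passed a 4-fold threshold (17.6% of all cluster III regions did), and 0 passed 2-fold once ratios were divided by the cluster III median (15.2% did). Among regions at or above the median MACS tags, 2 of 3 passed (56.2% did). Of the 40 pluripotency genes, 7 in place of 11 were named when a region had to lie within 5000 bp of the start, and also 7 when it had to reach the median tagcount. In the other 19 of 28 alternatives, counts stayed within 1.5 times the reported ones, and shares, median ratios and widths stayed within their interval or range. Some of these outcomes were fixed in advance. The range for the median ratio was that of the 6 regions, so the median of a subset of them could not leave it. The enhancer cut of 24 could remove no enhancer-list region of clusters I and II, where the lowest tagcount is 35. No paired analysis was possible because each condition had 1 library.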

Other observations

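Within 50000 bp, POU5F1, SOX2, LIN28B, SALL4 and TRIM71 had no region named for another gene. LIN28A was flanked by a cluster II enhancer-list region named ZNF683, 16944 bp away with a tagcount of 82, and by a cluster III promoter-list region of DHDDS, a gene of dolichol synthesis, 12357 bp away with 99 MACS tags and a tagcount of 69.

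No other gene had the same numbers of regions by cluster and list as LIN28A. The nearest, with a summed difference of 3 regions over the 6 counts, were CENPT, COX20, FHIT, MRPS22, SNHG1 and ZNF790. The counts of SALL4 (1 promoter-list region in each of clusters II and III and 1 enhancer-list region in cluster III) were shared by AMOTL2, ERI3 and RP11-317P15.4. These likenesses are of region counts in 1 library per condition.

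The position class and the deposited distance did not always match. For 2 of the 7 regions classed in the start window, at POU5F1 and LIN28A, the deposited distance was beyond 1250 bp. The same was true of 126 of all 4703 regions so classed (2.68%).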
